A study of Mus musculus with 8 samples.

Results

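In a murine leukaemia line in which wild-type PU.1 was switched on, 2484 of 20583 CEBPA peaks (12.1%) overlapped no CEBPA peak of the control line. The regions described here are the 1408 of them that also lay away from PU.1. They were chosen by their coordinates alone, as the CEBPA peaks of the PuER line that overlapped by 1 bp or more no CEBPA peak of the empty-vector line and no PU.1 peak of either line. They made up 6.84% of the CEBPA peaks of the PuER line (exact 95% interval 6.499–7.194) and 56.7% of the new ones (54.7–58.6). Because the peak calls of both antibodies selected them, that they are new and that they lie away from PU.1 is not a result.

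The cells were X18.1.1, a cell line from a radiation-induced acute myeloid leukaemia of the mouse. All cells of this line lack one *Pu.1* (*Spi1*) allele. The protein made from the other is mutant, with an amino acid changed where PU.1 contacts DNA and part of its PEST domain missing. The PU.1− line was a clone transduced with an empty MSCV-puro retrovirus and held only this mutant PU.1. The PU.1+ line was a clone carrying PuER, wild-type PU.1 fused to an oestrogen receptor domain that 4-hydroxytamoxifen (OHT) activates, in the same retrovirus. Both were given 100 nM OHT for 2 h before chromatin immunoprecipitation with PU.1 or CEBPA antibodies, with 1 library per antibody and line. Each line was 1 clone, so a difference between the clones cannot be told apart from an effect of PU.1, and no test between the lines was possible. Each list held peak coordinates without heights, so the depth is unknown, and all peaks were 400 bp wide. Coordinates are those of mm10 (GRCm38).

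CEBPA is a basic leucine zipper transcription factor required for the formation of granulocytes and monocytes from progenitors. It binds as a dimer to a palindromic site, each partner contacting one arm, and it can also pair with other leucine zipper proteins such as the ATF, FOS and JUN families. FOS and JUN dimers bind the AP-1 site, and ATF dimers the related CRE (TGACGTCA). PU.1 is an ETS factor of the same lineages that binds sites with a GGAA core, and both factors occupy many enhancers of myeloid genes together. In the text below, a CEBP site is a match to TTGCNNAA on either strand, a CEBP-ATF composite site is TGATGCAA, and an AP-1 site is TGANTCA. Sites were counted in the central 80 bp of a peak unless stated.

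The new CEBPA peaks away from PU.1 were compared with 3 other sets. The 13502 constitutive peaks away from PU.1 were CEBPA peaks of PU.1+ that overlapped one of PU.1−. The 7267 vector-only peaks away from PU.1 were called only in PU.1−. The 1076 new peaks at PU.1 overlapped a PU.1 peak of either line. A peak away from PU.1 was new less often than one at PU.1: 9.44% of 14910 (8.98–9.92) against 18.97% of 5673 (17.95–20.01). These shares only describe the sizes of the sets, since the peak calls that chose the members define both properties. Differences between sets are given in percentage points with a 95% interval by Newcombe's method. All intervals cover counting error over peaks within these 4 libraries only, and neighbouring peaks are not independent.

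Sequences of the new peaks are shown first at genes of known myeloid or metabolic function, since these allow the site and its setting to be seen together. Of the peaks assigned to a gene of the lists described below, the following had a CEBP site in the central 80 bp, which is written 5′ to 3′ on the plus strand with the site in capitals.
Hp: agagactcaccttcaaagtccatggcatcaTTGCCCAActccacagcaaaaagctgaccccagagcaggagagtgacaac
Ccr2: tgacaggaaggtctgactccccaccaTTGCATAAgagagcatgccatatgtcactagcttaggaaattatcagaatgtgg
Cx3cr1: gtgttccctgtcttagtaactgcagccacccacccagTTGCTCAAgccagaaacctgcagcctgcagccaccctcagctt
Fcgr2b: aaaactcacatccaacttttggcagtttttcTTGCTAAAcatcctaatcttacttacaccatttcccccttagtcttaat
Fli1: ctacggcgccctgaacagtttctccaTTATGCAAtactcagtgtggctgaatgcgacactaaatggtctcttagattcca
Bcl11a: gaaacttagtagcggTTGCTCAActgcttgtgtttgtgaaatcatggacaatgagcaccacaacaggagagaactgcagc
G6pc: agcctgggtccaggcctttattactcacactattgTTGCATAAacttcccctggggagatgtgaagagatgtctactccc
Lep: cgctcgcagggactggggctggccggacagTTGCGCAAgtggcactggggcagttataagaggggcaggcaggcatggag
The *Hp* peak (chr8:109577470-109577549) lay in a coding exon of the gene for haptoglobin, a haemoglobin-binding protein of granulocytes and liver. The *Ccr2* region (chr9:124072475-124072554) was intergenic, 29.4 kb upstream of the gene for the chemokine receptor that draws monocytes from the marrow. The *Cx3cr1* region (chr9:119979024-119979103) lay in an intron of the gene for the fractalkine receptor of monocytes and microglia. The *Cx3cr1* region was 90.8 kb from the start of that gene and also lay inside *Csrnp1*, whose start was the nearest, 1.73 kb away. The *Fcgr2b* region (chr1:170996154-170996233) was intergenic, 19.7 kb upstream of the gene for the inhibitory IgG receptor. The *Fli1* (chr9:32434734-32434813) and *Bcl11a* (chr11:24121269-24121348) regions were intronic, in genes for transcription factors of blood progenitors. The *G6pc* region (chr11:101386752-101386831) lay 19.2 kb downstream of the start of the gene for glucose-6-phosphatase. The *Lep* region (chr6:29060136-29060215) was centred 0.044 kb upstream of the start of the gene for leptin, an adipocyte hormone, and was the only one of the 8 with the full palindrome TTGCGCAA.

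Of the 1408 new peaks away from PU.1, 515 held a CEBP site in their central 80 bp (36.6%, 34.1–39.2). The windows centred 2000 bp to either side held one in 3.44% (2.80–4.19), and the CEBPA peaks of PU.1+ as a whole in 38.2% (37.5–38.8). The share was below that of the constitutive peaks away from PU.1 (41.1%, 40.3–42.0) by 4.55 points (difference -4.55, interval -7.16 to -1.87). It was above that of the vector-only peaks (30.1%, 29.0–31.1) by 6.51 points (3.81 to 9.26) and above that of the new peaks at PU.1 (23.3%, 20.8–25.97) by 13.2 points (9.65 to 16.8). With the looser site TTNNGNAA the shares were 55.7%, 61.5%, 53.1% and 49.6%, and the difference from the vector-only peaks no longer excluded 0 (2.54 points, -0.31 to 5.36). The lists give no heights, so whether the sets differ in peak strength was not tested.

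**Figure D1:**
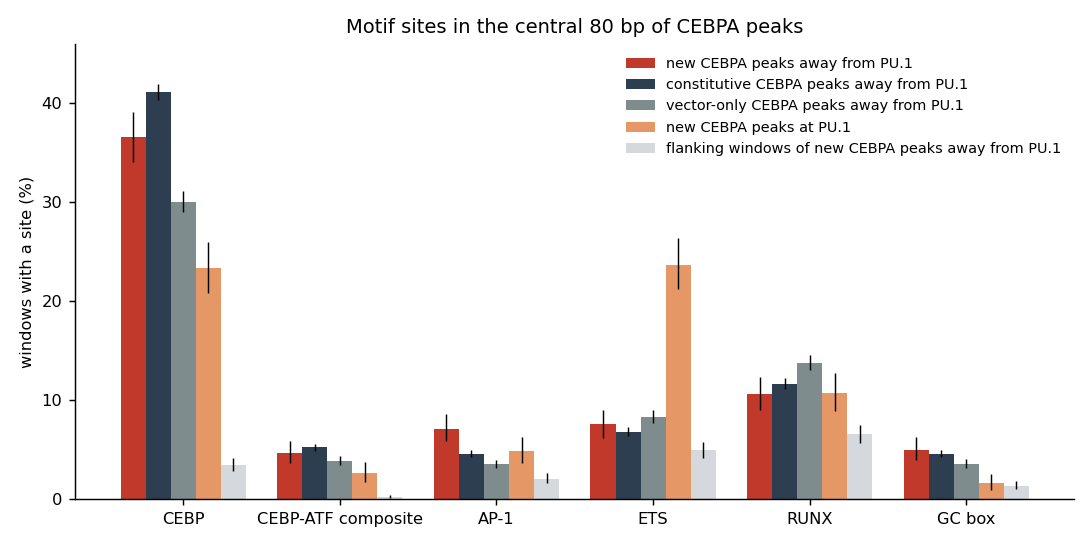
Share of windows with at least 1 site (%, y axis) for 6 motifs (x axis) in the central 80 bp of 4 sets of CEBPA peaks and in the windows flanking the new peaks away from PU.1; bars are shares and lines exact 95% intervals. New peaks away from PU.1 (red) had CEBP sites in 36.6%, between the constitutive (41.1%) and vector-only (30.1%) peaks, and the highest AP-1 share of the 5 sets (7.10%).

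The sites lay at the peak centres. There were 13.4 CEBP sites per 100 new peaks away from PU.1 in each of the 20-bp bins on either side of the centre, against 0.64 and 0.99 in the outermost bins. In the 721 peaks with a site anywhere in their 400 bp, the nearest site was a median of 20 bp from the centre, compared with 16 bp in constitutive and 23 bp in vector-only peaks. More than 1 site was rare: 24 peaks (1.70%, 1.10–2.53) held 2 and none held more. This share was below the 3.01% (2.73–3.31) of constitutive peaks with several (difference -1.30 points, -1.94 to -0.44). It was within counting error of the vector-only peaks (1.24%; 0.47 points, -0.16 to 1.32) and of the new peaks at PU.1 (1.39%; 0.31 points, -0.74 to 1.30). To show peaks with 2 sites, 3 of the 24 are given, with each site in capitals.
Cited2 distal region A: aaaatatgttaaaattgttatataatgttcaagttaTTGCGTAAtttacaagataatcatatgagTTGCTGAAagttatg
Cited2 distal region B: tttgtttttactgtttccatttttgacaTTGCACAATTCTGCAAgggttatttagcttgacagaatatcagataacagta
Nek10 region: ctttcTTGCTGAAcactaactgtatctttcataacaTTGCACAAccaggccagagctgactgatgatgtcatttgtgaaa
Both *Cited2* regions (chr10:16450519-16450598 and chr10:17212117-17212196) lay far from genes, 1273 kb and 511 kb from the start of *Cited2*, and in the second the 2 sites abutted. The *Nek10* region (chr14:14971133-14971212) lay inside that gene, 40.6 kb from its nearest annotated start.

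**Figure D2:**
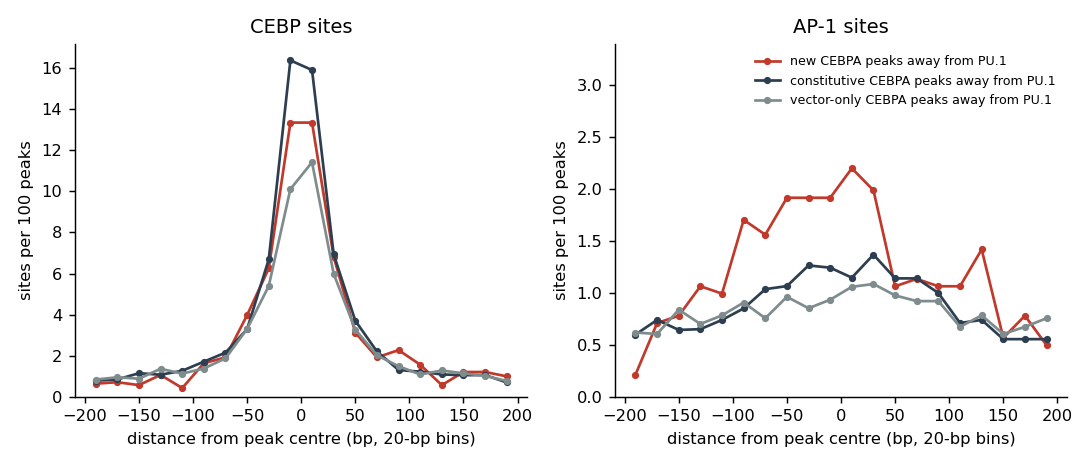
CEBP sites (left) and AP-1 sites (right) per 100 peaks (y axes, different scales) in 20-bp bins by distance from the peak centre (x axis, bp) for new, constitutive and vector-only CEBPA peaks away from PU.1. CEBP sites formed a sharp central peak in all 3 sets, 13.4 per 100 new peaks in each middle bin, while AP-1 sites of the new peaks formed a broad rise of about 2 per 100.

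TTGCACAA was the most common form of the CEBP site in new and constitutive peaks, and the symmetric form was rarer in the new ones. Of the 539 sites of the new peaks, 147 (27.3%, 23.5–31.2) were TTGCACAA, 69 (12.8%, 10.1–15.9) TTGCATAA, 58 (10.8%, 8.27–13.7) TTGCTCAA and 41 (7.61%, 5.51–10.2) TTGCGTAA, counting both strands. Among the 5970 sites of the constitutive peaks these letters made up 25.7%, 9.13%, 11.4% and 7.52%. The full palindrome TTGCGCAA, in which both arms are alike, stood in 21 new peaks (1.49%, 0.93–2.27) and in 448 constitutive peaks (3.32%, 3.02–3.63), a difference of -1.83 points (-2.43 to -0.997). The vector-only peaks held it in 1.47% (1.21–1.78), 0.019 points from the new peaks (-0.58 to 0.84). The *Lep* promoter shown above is one of the 21.

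The CEBP-ATF composite site, which joins one arm of a CEBP site to one of an ATF site, was found in 65 new peaks away from PU.1 (4.62%, 3.58–5.85) and in 0.178% of flanking windows. Its share differed from that of the constitutive peaks (5.21%) by -0.59 points (-1.64 to 0.69) and from that of the vector-only peaks (3.88%) by 0.74 points (-0.35 to 2.03), both within counting error. It was above that of the new peaks at PU.1 (2.60%) by 2.01 points (0.52 to 3.48). By its letters the composite site cannot share bases with a match to TTGCNNAA, and 4 of the 515 peaks with a CEBP site held both. Among the other 893 peaks 6.83% held it, 1.81 points (0.21 to 3.74) above the vector-only peaks without a CEBP site (5.02%) and -1.16 points (-2.76 to 0.78) from the constitutive ones (7.99%). The 3 peaks with this site nearest the centre are shown with the site in capitals.
Thbs4 region: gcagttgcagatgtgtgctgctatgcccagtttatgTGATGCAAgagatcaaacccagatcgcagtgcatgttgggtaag
Tmem74 region: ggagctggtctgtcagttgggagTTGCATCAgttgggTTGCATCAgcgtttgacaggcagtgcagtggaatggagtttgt
Prg4 region: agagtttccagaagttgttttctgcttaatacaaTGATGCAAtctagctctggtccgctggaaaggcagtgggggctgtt
All 3 were intergenic, at chr13:92743032-92743111, 31.9 kb from the start of *Thbs4*, at chr15:43700035-43700114, 170 kb from that of *Tmem74*, and at chr1:150472170-150472249, 6.04 kb from that of *Prg4*. The *Tmem74* region held the site on the minus strand at 2 positions.

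AP-1 sites were more frequent in the new peaks away from PU.1 than in the sets they were compared with. They occurred in 100 of 1408 (7.10%, 5.82–8.57), in 4.56% (4.22–4.93) of the constitutive peaks and in 3.51% (3.10–3.96) of the vector-only peaks, which gave differences of 2.54 points (1.26 to 4.04) and 3.59 points (2.29 to 5.11). The new peaks at PU.1 held them in 4.83% (3.63–6.29), a difference of 2.27 points (0.37 to 4.12). The flanking windows of the new peaks held them in 2.06% (1.57–2.66), close to the 2.29% of those of the constitutive peaks. Searching the whole 400 bp widened the gap, with 21.0% (18.9–23.2) of the new, 15.96% of the constitutive and 14.9% of the vector-only peaks holding a site. The letters TGACTCA, the form bound best by FOS-JUN dimers, were the more common form and stood in 79 new peaks (5.61%, 4.47–6.94), against 3.599% (3.29–3.93) of the constitutive and 2.42% (2.08–2.80) of the vector-only peaks.

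Of the peaks with an AP-1 site, 2 of those with the site nearest the centre are shown with the site in capitals; this set was added after the AP-1 shares were seen.
Nab1 region: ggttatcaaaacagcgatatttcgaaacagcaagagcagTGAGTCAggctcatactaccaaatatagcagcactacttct
Txn2 region: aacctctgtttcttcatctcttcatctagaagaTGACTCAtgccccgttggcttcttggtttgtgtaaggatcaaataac
They were intergenic, at chr1:52366525-52366604, 100 kb from the start of *Nab1*, and at chr15:77881776-77881855, 33.9 kb from that of the thioredoxin gene *Txn2*. The AP-1 share was 6.80% in the new peaks with a CEBP site and 7.28% in those without, a difference of -0.48 points (-3.14 to 2.45). In both subsets it was above that of the constitutive peaks, by 2.74 points (0.80 to 5.30) with a CEBP site and by 2.36 points (0.75 to 4.31) without. From the new peaks at PU.1 it differed by 0.82 points (-3.28 to 4.24) with a CEBP site, which included 0. Without one the difference was 2.79 points (0.56 to 5.04).

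All sequences of 8 bases were also counted, without a motif chosen beforehand. Ranked against the flanking windows, the first 5 were TTGCACAA (147 peaks, 10.4% against 0.178%), ATTGCACA (6.39%), TTATGCAA (4.90%), ATTGTGCA (4.76%) and the composite site TGATGCAA (4.62%), each of them a CEBP or composite site or overlapping one. Ranked against the constitutive peaks, the first 5 were AGTCTTGA (0.923% against 0.222%), ATGACTCA, an AP-1 site (33 peaks, 2.34% against 1.16%), ATGGTTAG (0.710% against 0.133%), AAGAGGAA (1.49% against 0.607%) and CCCACGTC (0.568% against 0.0667%). The 5 most depleted were CAGGAAGC, with an ETS core (0.426% against 1.66%), GTTGCAAC (0.284% against 1.37%), TTGCGCAA, CTTGCTCA (0.355% against 1.49%) and GTTGCGCA (0.639% against 1.85%). These ranks compare many sequences and carry no test.

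At the centre, ETS sites were within counting error of the other peaks away from PU.1, and RUNX sites were rarer than in the vector-only peaks. The ETS site GGAAGT was found in 7.53% of the new peaks away from PU.1 (6.20–9.03), in 6.80% of the constitutive and in 8.30% of the vector-only peaks, with differences of 0.73 points (-0.61 to 2.28) and -0.77 points (-2.19 to 0.85). Over the whole 400 bp the share was 28.3% (25.9–30.7), 2.69 points (0.29 to 5.21) above that of the constitutive peaks (25.6%). The longer PU.1-type site GAGGAAGT stood in 12 new peaks away from PU.1 (0.852%), against 0.710% of their flanking windows. Over the whole 400 bp it stood in 3.84% of them, 1.52 points (0.60 to 2.69) above the constitutive (2.31%) and 1.08 points (0.11 to 2.27) above the vector-only peaks (2.75%). In the central 80 bp of new peaks at PU.1, which PU.1 binding itself defined, the ETS and PU.1-type shares were 23.7% and 6.23%. RUNX sites (TGTGGT or TGCGGT), bound by a factor that works with both proteins in myeloid cells, were found in 10.6% of the new peaks (9.02–12.3), 3.21 points below the vector-only peaks (13.8%, difference -3.21, -4.91 to -1.32) and within counting error of the constitutive peaks (11.6%, difference -1.06, -2.66 to 0.74). Over the whole 400 bp they were rarer than in both, with 32.3% against 37.9% of the constitutive (difference -5.53, -8.06 to -2.91) and 41.3% of the vector-only peaks (difference -8.98, -11.6 to -6.25). Of the 19 motifs searched in the central 80 bp, 4 gave an interval that excluded 0 against the constitutive peaks (3 forms of the CEBP site and AP-1) and 5 against the vector-only peaks (CEBP, AP-1, RUNX, GC box and STAT). Over the whole 400 bp these numbers were 10 and 6. The 6 further motifs against the constitutive peaks were ETS, PU.1-type, RUNX, CRE, GATA and the E-box CACGTG.

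The CRE was found in 21 new peaks over the whole 400 bp (1.49%, 0.93–2.27), against 0.822% of constitutive and 0.605% of vector-only peaks (differences of 0.67 points, 0.13 to 1.46, and 0.89 points, 0.33 to 1.68). At the centre it stood in only 5 (0.355%), and both differences included 0. The GATA site AGATAA was found over the whole peak in 20.5% against 18.1% of constitutive peaks (2.34 points, 0.21 to 4.62), and the E-box CACGTG, bound by MYC and related factors, in 5.75% against 7.55% (difference -1.79, -2.99 to -0.38). The STAT site TTCCNGGAA was absent from the centres, 0 of 1408, which allows up to 0.262%, against 0.468% of the vector-only peaks (difference -0.47 points, -0.65 to -0.17). Over the whole 400 bp 16 new peaks held it (1.14% against 1.62%), and this difference included 0 (-0.49 points, -1.03 to 0.26).

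The new peaks away from PU.1 lay at promoters about as often as the constitutive peaks. Promoter peaks, those centred at most 1000 bp from a protein-coding transcript start, numbered 287 (20.4%, 18.3–22.6). Another 563 (39.99%) were inside genes and 558 (39.6%) between genes. The share inside genes was below that of the constitutive (43.8%; difference -3.84, -6.501 to -1.12) and the vector-only peaks (44.8%; difference -4.79, -7.57 to -1.97). The promoter share differed by 1.31 points (-0.82 to 3.59) from that of the constitutive peaks (19.1%), and was above that of the vector-only peaks (14.9%) by 5.45 points (3.26 to 7.78) and that of the new peaks at PU.1 (10.6%) by 9.79 points (6.96 to 12.6). With a limit of 2500 bp the difference from the constitutive peaks was -1.21 points (-3.59 to 1.29).

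Promoter and distal members differed in the sites they held; this split, that of the palindrome and the distance of 500 kb below were chosen after values were seen. A CEBP site was present in 21.6% of the 287 promoter peaks and in 40.4% of the 1121 distal ones, a difference of -18.8 points (-24.1 to -13.0). An AP-1 site was present in 2.44% and 8.30% (difference -5.86, -8.02 to -2.95). The GC box GGGCGG, common in CpG-rich promoters, was present in 16.7% and 1.96% (14.8 points, 10.8 to 19.6). The other sets split in the same direction. Constitutive peaks held a CEBP site in 33.0% at promoters and 43.0% elsewhere, an AP-1 site in 2.68% and 5.01% and a GC box in 15.5% and 1.98%, and vector-only peaks a CEBP site in 19.3% and 31.9%. Within promoters, the CEBP share was 11.4 points below that of the constitutive peaks there (difference -11.4, -16.2 to -6.02). It was within counting error of the vector-only promoter peaks (2.25 points, -2.77 to 7.84), and of the new promoter peaks at PU.1 (21.1%; 0.55 points, -8.89 to 8.81). Among distal peaks the difference from the constitutive peaks was -2.62 points (-5.61 to 0.42) and that from the vector-only peaks 8.46 points (5.39 to 11.6). Among distal peaks the AP-1 share was 3.29 points above the constitutive (5.01%; 1.75 to 5.09) and 4.62 points above the vector-only peaks (3.07 to 6.44), and at promoters it differed from the constitutive peaks by -0.24 points (-1.67 to 2.33). Whether the promoter and distal differences themselves differ was not tested. The new peaks with a CEBP site had a median GC content of 44.0% (quartiles 40.2 and 48.8) and those without 47.5% (41.8 and 53.5), and over all 1408 it was 46%, with 46.5% in the constitutive peaks.

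**Figure D3:**
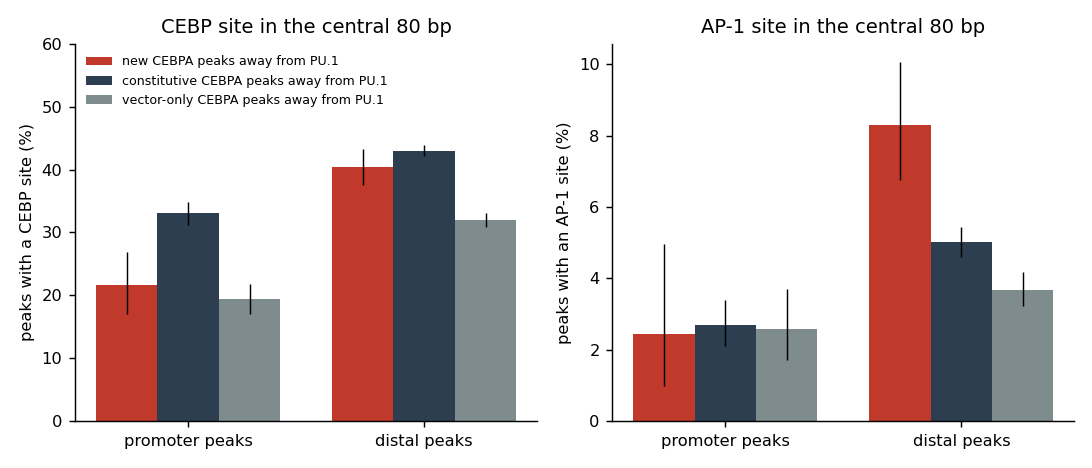
Share of promoter and distal peaks (x axis) with a CEBP site (left) or an AP-1 site (right) in the central 80 bp (%, y axes, different scales) in new, constitutive and vector-only CEBPA peaks away from PU.1; lines are exact 95% intervals. Among promoter peaks the new set held CEBP sites in 21.6% and the constitutive set in 33.0%, and among distal peaks the new set had the tallest AP-1 bar, 8.30%.

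A small part of the new peaks lay far from any protein-coding start. The median distance to the nearest protein-coding start was 12.1 kb (quartiles 2.00 and 45.7), against 10.1 kb in constitutive and 11.8 kb in vector-only peaks. More than 500 kb separated 45 peaks (3.20%, 2.34–4.25) from any such start, against 1.21% (1.03–1.41) of constitutive, 1.75% of vector-only and 1.67% of new peaks at PU.1, which gave differences of 1.99 points (1.17 to 3.06), 1.45 points (0.58 to 2.54) and 1.52 points (0.28 to 2.74). These 45 lay on 14 chromosomes, 23 of them (51.1%, 35.8–66.3) held a CEBP site and 6 an AP-1 site. With a limit of 100 kb the share was 12.9%, and only the difference from the constitutive peaks excluded 0 (2.36 points, 0.62 to 4.28). That from the vector-only peaks was 0.86 points (-0.96 to 2.85), and that from the new peaks at PU.1 (15.2%) turned direction (-2.22 points, -5.03 to 0.52).

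The new peaks also stood farther from constitutive CEBPA binding. A constitutive CEBPA peak, at or away from PU.1, lay within 50 kb of 67.5% of them (64.9–69.9), compared with 79.3% of the constitutive peaks away from PU.1, the peak itself not counted, and 76.8% of the vector-only peaks. The differences were -11.8 points (-14.4 to -9.35) and -9.33 points (-12.0 to -6.74), and within 10 kb -8.29 points (-10.8 to -5.65) and -7.33 points (-9.99 to -4.58). The order was the opposite at short range, with a constitutive peak within 1 kb of 7.81% of new, 4.99% of constitutive and 5.90% of vector-only peaks (differences of 2.82 points, 1.48 to 4.38, and 1.91 points, 0.50 to 3.52). Median distances were 21.4, 14.3 and 15.3 kb. A peak just short of an overlap counts as new, as did members with gaps of 2 and 6 bp to a CEBPA peak of PU.1−. Whether this bears on the share within 1 kb was not tested. Other overlap rules were not run at 1 kb.

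New PU.1 peaks were close to some of the new CEBPA peaks. A PU.1 peak of PU.1+ that overlapped none of PU.1− was centred within 1 kb of 86 (6.11%), against 3.73% of constitutive and 2.72% of vector-only peaks (differences of 2.38 points, 1.20 to 3.79, and 3.38 points, 2.18 to 4.80). Within 10 kb the shares were 29.4% (27.03–31.9), 28.7% and 24.7%, and the new peaks no longer stood apart from the constitutive ones (0.71 points, -1.73 to 3.26). Within 50 kb 65.1% of the new peaks had such a neighbour. A peak just short of an overlap counts as away, and whether this bears on the share within 1 kb was not tested. Of the 1408, 114 (8.10%) had a gap of at most 200 bp to a peak of the other 3 lists, CEBPA of PU.1− included. The median gap was 8444 bp. With peaks less than 500 bp apart counted as overlapping, 24.7% of the members then left had a new PU.1 peak within 10 kb. By this rule the difference from the constitutive peaks was -0.92 points (-3.39 to 1.70). That from the vector-only peaks was 2.61 points (0.048 to 5.30), against 4.72 points (2.19 to 7.34) by the main rule. The 3 members just inside the rule had gaps of 2, 6 and 8 bp, and the 3 CEBPA peaks just outside it overlapped another peak by 1, 3 and 3 bp.

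**Figure D4:**
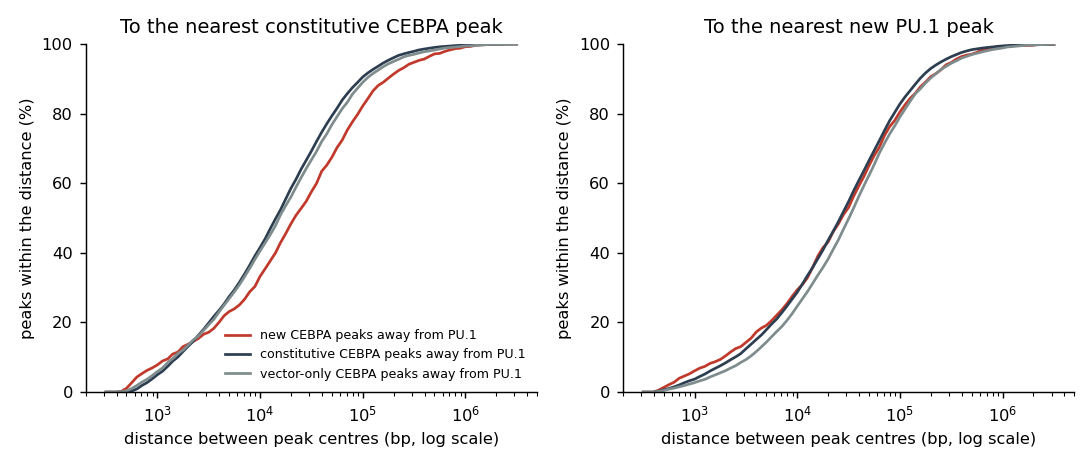
Cumulative share of new, constitutive and vector-only CEBPA peaks away from PU.1 (%, y axis) with a constitutive CEBPA peak (left) or a new PU.1 peak (right) within a given distance between centres (x axis, bp, log scale). The new peaks cross the other curves on the left and lie below them at longer range, with 67.5% against 79.3% and 76.8% within 50 kb.

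Across the genome, 9.44% of the CEBPA peaks of PU.1+ away from PU.1 were new. Chromosome 1 had the highest share, 132 new against 930 constitutive peaks (12.4%, 10.5–14.6), followed by chromosome 3 (11.7%, 9.59–14.1) and chromosome 10 (11.2%, 9.21–13.5). The lowest shares were 6.41% on chromosome X (20 peaks, 3.96–9.73) and 7.02% on chromosome 2 (68 peaks, 5.50–8.82), which carries *Pu.1*. These are the extremes of 20 chromosomes, and the part of copy number in the clones was not tested.

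**Figure D5:**
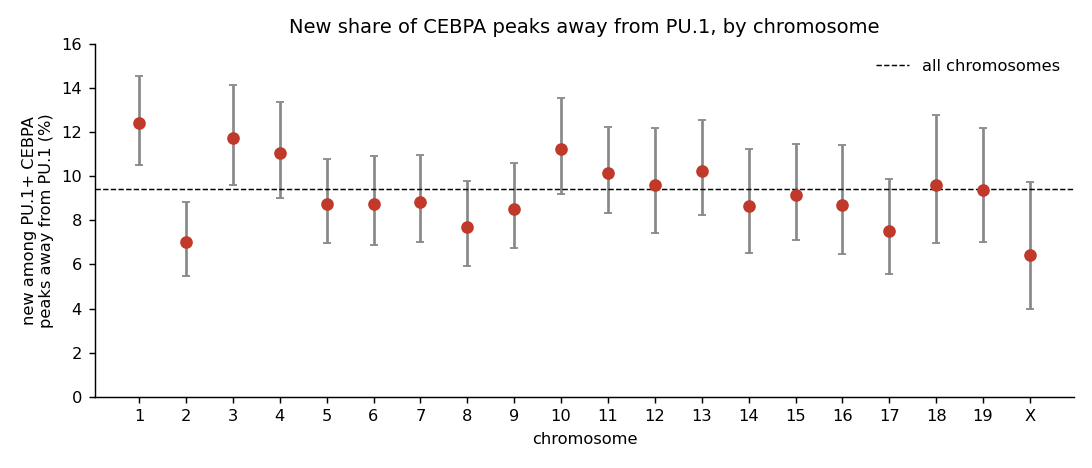
New peaks as a share of the CEBPA peaks of PU.1+ away from PU.1 (%, y axis) on each chromosome (x axis); points are shares, lines exact 95% intervals, and the dashed line is the share over all chromosomes, 9.44%. Chromosome 1 is highest at 12.4% and chromosome X lowest at 6.41%.

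The peaks were mostly scattered, and a few loci gained several. Another member lay within 10 kb of 70 of the 1408 (4.97%) and within 50 kb of 236 (16.8%), compared with 12.4% of constitutive and 10.2% of vector-only peaks within 50 kb of a new peak (differences of 4.39 points, 2.45 to 6.51, and 6.52 points, 4.53 to 8.67). Of the 1-Mb windows with any, 607 held 1 and 1 held 7, the stretch of chromosome 11 from 34000001 to 35000000, where 9 constitutive peaks away from PU.1 also lay. It holds *Dock2*, which encodes a Rac activator needed for migration of blood cells, and *Spdl1*, which encodes a protein of the mitotic spindle. Each was assigned 3 new peaks, those of *Dock2* all in its introns and those of *Spdl1* all upstream of it. A further 6 lay in the megabase from 52000001 on chromosome 13, with *Diras2* and *Syk*, 6 in that from 102000001 on chromosome 4, with *Sgip1*, and 6 in that from 26000001 on chromosome 8.

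For genes, a peak was given to the gene whose promoter held it, failing that to genes whose body did, and failing that to the nearest gene on each side up to 50 kb away. By this rule 1197 of the 1408 had a gene and 1287 of 21924 protein-coding genes (5.87%) had a new peak. Of these genes, 1173 had 1 peak, 98 had 2, 11 had 3, 3 had 4 and 2 had 5. The genes with 5 were *Pde4d*, for a cAMP phosphodiesterase, and Gm20388, an annotated locus of 4435 kb that spans many genes. *Pde4d* is 1504 kb long, and its 5 peaks were all intronic, 2 with a CEBP site and 2 with a composite site, beside 21 constitutive peaks away from PU.1. Both genes are long.

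The genes with 4 were shorter. *Sgip1*, whose product acts in endocytosis, had 4 new peaks and no constitutive or vector-only peak, 3 of the 4 with a CEBP site, of which 2 lay upstream of the gene and 1 in an intron. *Syk*, for the tyrosine kinase downstream of Fc receptors and integrins, had 2 new peaks in its first 10 kb, 6.03 and 8.19 kb into the gene, and 2 upstream, at -2.10 and -44.3 kb from its start. Only the peak at 8.19 kb (chr13:52591167-52591566) had a central CEBP site, and the gene had 3 constitutive and 1 vector-only peak away from PU.1. At PU.1, 2 constitutive CEBPA peaks and 2 new ones were also assigned to *Syk*. *Diras2*, for a RAS-related GTPase, lies beside *Syk* and shared the 2 upstream peaks.

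Among the 11 genes with 3 were *Ctsc* and *Anxa1*. *Ctsc* encodes cathepsin C, which activates the serine proteases of myeloid granules. Each of its 3 new peaks held a central CEBP site, at 23.9, 41.3 and 51.7 kb from its start. Away from PU.1, the constitutive set had 1 peak there and the vector-only set 0. At PU.1, 2 constitutive CEBPA peaks and 1 new one were also assigned to it. *Anxa1* encodes annexin A1, an anti-inflammatory protein of neutrophils and macrophages. Its new peaks lay in an intron, at -0.60 kb and at -21.3 kb from its start, none with a central CEBP site, although the last held 4 over its 400 bp. The nearest constitutive CEBPA peaks were 1.222, 0.749 and 2.535 kb from them. *Anxa1* was also assigned 3 constitutive and 1 vector-only peak away from PU.1, and 2 constitutive peaks at PU.1. The transcription factor genes *Nfia* and *Zbtb20*, the receptor genes *Chrm3* and *Adgrl3*, and *Akap13*, *Tmeff2* and *Ddx1* completed this group with *Dock2* and *Spdl1*. All 3 *Chrm3* peaks were intronic with the nearest constitutive CEBPA peak at least 189 kb away, and 1 of them lay 2.06 kb from a new PU.1 peak. *Chrm3*, 485 kb long, was also assigned 3 constitutive CEBPA peaks at PU.1, 4 vector-only peaks away from PU.1 and 1 new peak at PU.1.

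The 8 gene lists used to look for known targets held 141 genes, of which 22 (15.6%) had a new peak away from PU.1, 97 (68.8%) a constitutive and 70 (49.7%) a vector-only one. Over all protein-coding genes these shares were 5.87%, 34.6% and 22.4%, so the listed genes held more peaks of each kind, and nothing here is particular to the new peaks.

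In the monocyte and macrophage list, 5 of 24 genes had a new peak away from PU.1 (20.8%, against 50.0% with a constitutive peak). The shares over all protein-coding genes were 5.87% and 34.6%. A new CEBPA peak at PU.1 was assigned to 8 of the 24 (33.3%), against 4.3% of all protein-coding genes. Away from PU.1, *Fcgr2b* had 2 new peaks, and *Itgam*, *Ccr2*, *Cx3cr1* and *Mpeg1* had 1 each, that of *Cx3cr1* being inside *Csrnp1* as well. The *Itgam* peak (chr7:128050769-128051168) lay at -11.7 kb from the start of the gene for the CD11b integrin chain, 1.97 kb from a new PU.1 peak, and had no CEBP site in its 400 bp. The *Mpeg1* peak (chr19:12439630-12440029), at -20.95 kb from the start of the gene for a pore-forming protein, lay 0.757 kb from a new PU.1 peak and 0.445 kb from a constitutive CEBPA peak.

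Of the 20 genes for stem and progenitor transcription factors, 5 (25%) had a new peak and 16 (80%) a constitutive one. The shares over all protein-coding genes were 5.87% and 34.6%. *Etv6* had 2, of which 1 lay in an exon at its start, and *Spi1*, *Myc*, *Fli1* and *Bcl11a* had 1. The *Spi1* peak (chr2:91072061-91072460) was intergenic, at -10.1 kb from the start of the gene and outside the coding exons that PuER shares. It held no CEBP site in its centre and 2 over its 400 bp. *Esr1*, which supplies the other part of PuER, had no new peak. The *Myc* peak (chr15:61992362-61992761) lay 7.17 kb downstream of the start and held 1 AP-1 site and no CEBP site.

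Of the 20 CEBP and AP-1 family genes, 4 (20%) had a new peak and 18 (90%) a constitutive one. The shares over all protein-coding genes were 5.87% and 34.6%. The 4 were *Jun* and *Fosb*, which encode partners in AP-1, and the stress-response factors *Atf3* and *Ddit3*, the last of which encodes the CEBP relative CHOP. The *Jun* peak (chr4:95052097-95052496) was centred at -0.075 kb from the start, and the *Fosb* peak (chr7:19308578-19308977) lay in an exon 1.27 kb into the gene. None of these 4 peaks had a CEBP, composite or AP-1 site in its centre.

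Among metabolic genes known as CEBP targets in other tissues, 3 of 13 (23.1%) had a new peak and 10 (76.9%) a constitutive one. Over all protein-coding genes these shares were 5.87% and 34.6%. The 3 were *Lep*, *G6pc* and *Scd1*, and the *Scd1* peak held a composite site. The inflammatory and acute phase list had 2 of 18, *Il1rn*, for the interleukin-1 receptor antagonist, with a peak at -16.4 kb, and *Nfkbia*, for the NF-κB inhibitor, with one 6.73 kb downstream of its start. The granule protein list had 1 of 17 (*Hp*), the growth factor receptor list 1 of 14 (*Ifngr1*, 21.2 kb from its start) and the cell cycle and apoptosis list 1 of 15 (*E2f3*, in an intron). A constitutive peak away from PU.1 was assigned to 15 inflammatory, 10 granule protein, 6 growth factor receptor and 10 cell cycle genes. Of the 24 peaks assigned to the 22 listed genes, 8 had a central CEBP site.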

How the data were processed

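Chromatin immunoprecipitation followed by sequencing was carried out by the authors in X18.1.1 cells. Per the labels, reads were mapped to mm10 (GRCm38) with Bowtie2 2.0.6 and peaks were called with MACS2 2.0.10. The deposited lists held a chromosome, a start and an end per peak, with no score, and each interval was 400 bp wide. The calling threshold and the trimming to 400 bp are not given in the sources used here. The 4 libraries with peaks were used of 8 samples. The H3K27Ac and IgG libraries were not used here. The time of 2 h follows the labels, although the study's results also mention a time before OHT. The depth of each library is unknown.

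Peaks were sorted into sets by an overlap of 1 bp, and the members were the same as those of bedtools 2.31.1. Constitutive peaks were counted in PU.1+, and the distances are between peak centres. Sequences were read from the GRCm38.p6 RefSeq genome with pysam 0.24.0 and samtools 1.23.1. The motifs were exact matches on both strands, with overlapping matches all counted, and palindromic and degenerate sites can overlap CEBP sites. The 8-base ranking took the excess of windows, scaled to equal numbers, relative to the root of the summed counts with 1 added. Gene positions came from GENCODE M21. Shares carry exact (Clopper-Pearson) and differences Newcombe 95% intervals (scipy 1.17.1, numpy 2.4.6, pandas 2.3.3, Python 3.11.15). The steps were tested on simulated peaks and sequences. Without replicates no p-value was computed.

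The members, motifs and lists were chosen with earlier results of these data known. Genes named were the 10 with the most new peaks with ties, every listed gene with one, *Spi1* and *Esr1*. Sequences shown were those at listed genes with a CEBP site, outside UTRs, and the 3 peaks first in each further set. Of the AP-1 set, 1 peak is not reported here. The alternatives were other overlap rules, search windows, site letters, promoter limits and distances.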

Additional observations from a re-analysis of the deposited data

How the results depend on the processing

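Across 141 alternatives (89 planned, 52 chosen after seeing the data) of 34 results, 113 moved a value by less than its counting interval or its limit for counts, 28 moved it further and 0 reversed a called one. The alternatives did not include the share over 500 kb from a start against new peaks at PU.1, which turned direction at 100 kb. Nor did they include the limit of 1 kb for a constitutive CEBPA neighbour, where the differences also turned direction. The number of new peaks away from PU.1 ranged from 1208 with peaks less than 500 bp apart counted as overlapping to 1868 with centres within 100 bp required, and genes with one from 1115 (20 kb) to 1437 (100 kb). Of 100 alternatives of differences, 2 brought 0 into the interval and 3 took it out. Searching the whole 400 bp gave CEBP, AP-1 and ETS shares of 51.21%, 21.02% and 28.27%, AP-1 differences of 5.062 (constitutive) and 6.147 points (vector-only), 6.089 and 7.908 points among distal peaks, and an ETS difference of 2.693 points from constitutive peaks, which then excluded 0. The motifs whose interval excluded 0 rose from 4 to 10 of 19 against constitutive and from 5 to 6 against vector-only peaks. The degenerate CEBP site gave a share of 55.68%, a difference of 2.537 points from vector-only peaks, which included 0, and one of 6.054 points from new peaks at PU.1. With peaks shared only where centres lay within 100 bp, the CEBP share was 33.19%, its difference from constitutive peaks -7.897 points, the share within 10 kb of a new PU.1 peak 38.28%, and its differences 5.898 points (constitutive, now excluding 0) and 11.3 points (vector-only). By construction this rule lets overlapping peaks count as new and away. With peaks less than 500 bp apart counted as overlapping, 24.75% lay within 10 kb of a new PU.1 peak and 63.74% within 50 kb of a constitutive CEBPA peak (difference from constitutive peaks -15.42 points). Promoter shares were 27.06% at 2500 bp (difference from constitutive peaks -1.21 points, including 0 as before) and 23.51% with any transcript. Other distances gave 10.44% (2 kb) and 65.13% (50 kb) near a new PU.1 peak, 33.24% within 10 kb of a constitutive peak (difference -8.289 points), 16.76% within 50 kb of another member and 12.93% over 100 kb from a start. Within 2 kb of a new PU.1 peak the difference from constitutive peaks was 2.012 points and excluded 0, and over 100 kb from a start that from vector-only peaks was 0.858 points and included it. The cause of these moves was not tested.

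No paired analysis was possible because each antibody had 1 library per line. Peaks carry no heights and the depth is unknown, so whether a peak missing from a list lay just below the calling threshold was not tested. The intervals treat peaks as independent and say nothing of other clones or cultures.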
